A study of Mus musculus with 20 samples.

Results

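Pdgfra, Flrt3, Dkk1 and Ctsh are 4 mouse genes grouped here as genes of the primitive endoderm. Every probe set that the platform's gene annotation assigns to one of them was taken, 5 of the 22511 probe sets other than controls, with 2 for Flrt3 and 1 for each of the others, and 4 of 9607 genes named by a single symbol. The samples were mouse oocytes, 1-cell embryos, 2-cell embryos, 8-cell embryos and blastocysts, with 4 Affymetrix MOE430B arrays per stage and 20 in all. Per the labels, total RNA was amplified by in vitro transcription in 2 rounds; they name no strain, treatment, age of the animals or number of oocytes or embryos per array. Nothing in the labels says that the 4 arrays of a stage came from separate pools, so the p-values rest on the spread among the arrays of a stage, and that spread may be technical. Precision is limited by having 4 arrays a stage.

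The primitive endoderm is the layer of the late blastocyst that lines the inner cell mass on the side of the cavity and later gives the visceral and parietal endoderm of the yolk sacs. In the mouse it forms under FGF signalling through ERK, and its precursors carry the transcription factor Gata6. Pdgfra encodes a receptor tyrosine kinase for platelet-derived growth factors and is widely used to mark these cells. Flrt3 encodes a transmembrane protein with leucine-rich repeats that binds Unc5 receptors and latrophilins and modulates FGF signalling. Dkk1 encodes a secreted antagonist of Wnt signalling that binds the co-receptors Lrp5 and Lrp6 and is made later by the anterior visceral endoderm. Ctsh encodes a lysosomal cysteine protease with aminopeptidase activity. All samples are whole oocytes or whole embryos, in which fewer cells of a type and less RNA per cell cannot be told apart.

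The promoter windows of Pdgfra, Flrt3 and Dkk1 are shown to let their sequence be set beside their profiles. Each is the RefSeq window of GRCm38.p6 that runs from 250 bases before to 50 bases after a gene start, read 5′ to 3′ on the strand of the gene. The windows lie at chr5:75152001-75152300 on the plus strand for Pdgfra, at chr2:140671427-140671726 on the minus strand for Flrt3 and at chr19:30549447-30549746 on the minus strand for Dkk1. Ctsh had no window among the promoter windows used here. Capitals mark matches, on either strand, to GATAA (the core of GATA factor sites), ACAAT (the core of SOX sites) or TCAAAG (the core of TCF/LEF sites, through which Wnt signalling acts).
Pdgfra: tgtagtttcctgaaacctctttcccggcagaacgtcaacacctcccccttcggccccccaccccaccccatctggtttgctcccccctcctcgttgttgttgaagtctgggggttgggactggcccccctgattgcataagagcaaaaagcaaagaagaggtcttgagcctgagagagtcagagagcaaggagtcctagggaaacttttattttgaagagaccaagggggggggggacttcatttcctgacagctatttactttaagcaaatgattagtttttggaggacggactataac
Flrt3: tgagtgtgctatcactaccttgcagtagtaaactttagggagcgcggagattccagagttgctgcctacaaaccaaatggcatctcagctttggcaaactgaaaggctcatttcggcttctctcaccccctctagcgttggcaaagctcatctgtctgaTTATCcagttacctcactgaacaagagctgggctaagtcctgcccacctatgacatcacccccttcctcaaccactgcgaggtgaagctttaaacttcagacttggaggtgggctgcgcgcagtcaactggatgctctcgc
Dkk1: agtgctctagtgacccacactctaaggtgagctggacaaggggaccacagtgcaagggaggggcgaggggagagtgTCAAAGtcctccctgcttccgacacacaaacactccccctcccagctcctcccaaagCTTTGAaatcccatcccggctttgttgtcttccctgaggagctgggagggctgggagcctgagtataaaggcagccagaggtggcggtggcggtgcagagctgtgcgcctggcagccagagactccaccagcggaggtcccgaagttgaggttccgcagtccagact
The Dkk1 window held the TCF/LEF core 2 times, starting 174 bases before the gene start on the gene's strand and 117 bases before it on the other strand. In the Flrt3 window the GATA core stood 1 time, read as TTATC, starting 91 bases before the gene start. None of the 3 cores was found in the Pdgfra window, and no matches overlapped. Of all 32851 promoter windows given, 25.4% held the GATA core, 31% the SOX core and 16% the TCF/LEF core, so such matches are common. They describe letters in these windows and say nothing on binding. The windows held 5, 8 and 9 CpG dinucleotides for Pdgfra, Flrt3 and Dkk1, against a median of 7 over all windows, and 51%, 51.3% and 60.7% G and C, against a median of 52.7%.

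Values are linear intensities as the authors deposited them, and the trimmed means of the arrays were nearly equal. Rises and falls are therefore relative to the other signals of an array, and the amount of a transcript per oocyte or embryo was not measured. Array medians lay between 67.8 and 93.3. The table carries no detection calls and its lowest value is 0.1, so a very low intensity may be background alone. Tests were run on log2(intensity + 20), which understates changes of low values, over the 15234 probe sets that reached 82.6, the median of the table, on 4 or more arrays. Of the 5 probe sets, 4 passed that filter. The Ctsh probe set did so on all 20 arrays, Flrt3 (1453102_at) on 8, Pdgfra on 7 and Dkk1 on 4, and the second Flrt3 probe set (1429310_at) reached it on only 3 arrays and was not tested. Pdgfra reached the filter on 4 blastocyst and 3 8-cell arrays and Dkk1 on 3 blastocyst arrays and 1 oocyte array, so that for these genes passing the filter and being high in blastocysts go together. Some control signals varied with stage. For 18S ribosomal RNA the middle probe set lay between 32272 and 42928.5 on the 1-cell arrays and between 398.1 and 3808.2 at the other stages, and the log2 ratio of the 3′ to the 5′ probe set of beta-actin averaged 1.09 in blastocysts, 1.93 at the 8-cell stage and 1.86 to 2.41 at the earlier stages. The same ratio of Gapdh ran the other way over the last step, at 2.38 in blastocysts and 1.04 at the 8-cell stage. Over that step the mean of the Gapdh 3′ probe set rose from 499 to 10143 and that of beta-actin from 12958 to 34817. The 18S mean did not rise, at 3282 in 8-cell embryos and 2592 in blastocysts. The part of these control changes in the results was not tested.

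Pdgfra (1438946_at), the receptor, was low through the 2-cell stage and highest in blastocysts. Its intensity was 39.3, 18.4, 11.6 and 50.3 on the 4 oocyte arrays, 51.0, 37.9, 81.5 and 12.6 on the 1-cell arrays, and 14.9, 66.2, 30.0 and 19.8 on the 2-cell arrays. It was 134.5, 112.7, 15.3 and 112.5 on the 8-cell arrays and 385.4, 231.7, 329.2 and 317.2 on the blastocyst arrays. Every blastocyst array lay above every array of the other stages, whereas the 8-cell arrays split, with 3 above all earlier arrays and replicate 3 among the lowest of them. Stage means were 316 ± 63.5 (SD, n = 4) in blastocysts and 93.8 ± 53.3 in 8-cell embryos, a log2 change of 1.74 with a 95% interval from 0.84 to 2.65 (limma, adjusted p = 0.00694). Against oocytes, at 29.9 ± 17.997, the log2 change of blastocysts was 2.80 (interval 1.90 to 3.71, limma adjusted p = 1.21e-05).

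The step into the 8-cell stage did not pass the test for Pdgfra, with a log2 change of 1.00 against 2-cell embryos at 32.7 ± 23.2 (interval 0.10 to 1.91, limma adjusted p = 0.0962). Without 8-cell replicate 3 it came to 1.50 (limma adjusted p = 0.00636), and without 2-cell replicate 2 to 1.27 (limma adjusted p = 0.0478). In the order blastocyst, 8-cell, 1-cell, 2-cell and oocyte, only the first of the neighbouring pairs was separated. The adjusted p-values of the others were 0.214, 0.711 and 0.949 by limma.

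**Figure D1:**
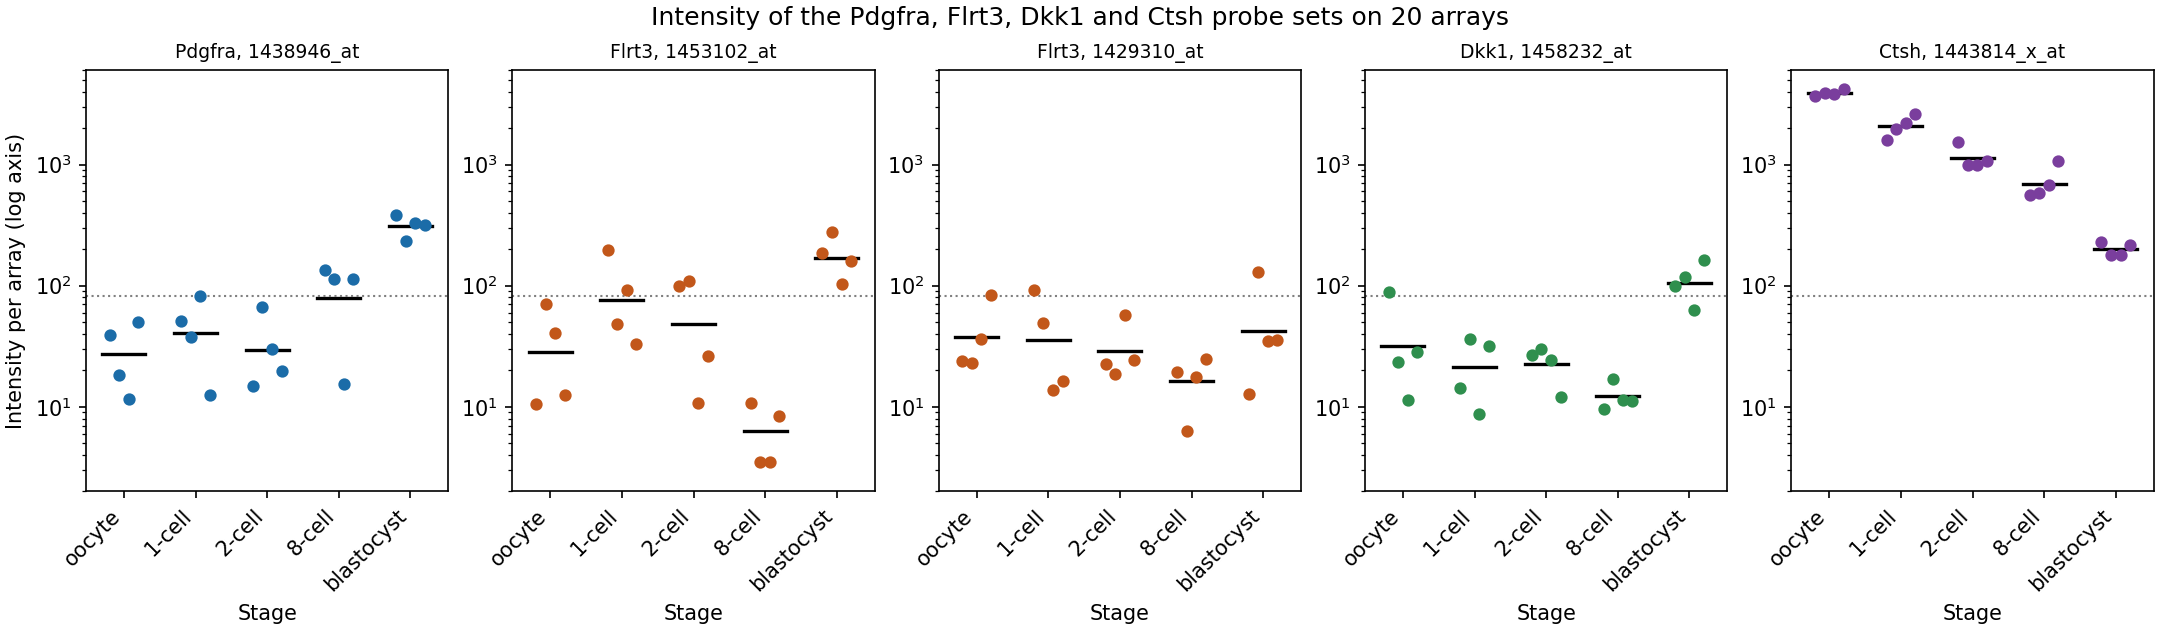
Each point is the intensity of one probe set on one array, on a log axis, by stage from oocyte to blastocyst, with 4 arrays per stage. Black lines are stage means taken on the log2(intensity + 20) scale, and the dotted line is the filter at 82.6. Pdgfra, Flrt3 (1453102_at) and Dkk1 are highest in blastocysts, and Ctsh falls at every step.

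Flrt3, the adhesion and guidance protein, has 2 probe sets that differ. For 1453102_at the oocyte arrays gave 10.6, 70.6, 40.4 and 12.6, the 1-cell arrays 197.2, 47.9, 92.0 and 33.2, and the 2-cell arrays 98.9, 109.9, 10.8 and 26.2. Intensities then were 10.8, 3.5, 3.5 and 8.4 at the 8-cell stage and 184.6, 276.1, 102.4 and 158.5 in blastocysts. The 8-cell arrays were thus uniformly low and the blastocyst arrays high, while the 3 earliest stages were spread widely within each stage. Means were 180.4 ± 72.4 (SD, n = 4) in blastocysts and 6.55 ± 3.66 in 8-cell embryos, with no overlap, and the log2 change was 2.86 with an interval from 1.85 to 3.86 (limma, adjusted p = 0.000135).

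Flrt3 (1453102_at) was called lower at the 8-cell stage before its rise. Its level averaged 6.55 ± 3.66 in 8-cell embryos and 61.5 ± 50.2 in 2-cell embryos (SD, n = 4), a log2 change of -1.38 (interval -2.38 to -0.37, limma adjusted p = 0.0365). That call was lost without 2-cell replicate 1 (limma adjusted p = 0.133), 2-cell replicate 2 (0.141), 8-cell replicate 2 (0.0756), 8-cell replicate 3 (0.0758) or 8-cell replicate 4 (0.0534). Against the 1-cell stage, at 92.6 ± 74.1, the 8-cell level was lower by a log2 change of -1.88 (limma, adjusted p = 0.00288), and no arrays overlapped. Blastocysts were not separated from 1-cell embryos, with a log2 change of 0.98 (interval -0.02 to 1.98, limma adjusted p = 0.118). They were higher than oocytes, at 33.6 ± 28.2, by 1.98 log2 units (limma, adjusted p = 0.00199), and higher than 2-cell embryos by 1.48 (limma, adjusted p = 0.0223). Ordered by level, the stages ran blastocyst, 1-cell, 2-cell, oocyte and 8-cell, and no neighbouring pair in that order was separated.

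The other Flrt3 probe set, 1429310_at, which the annotation ties to the same target accession, stayed between 6.3 and 129.1 on all 20 arrays. Its blastocyst arrays gave 12.8, 129.1, 35.1 and 35.6 and its 8-cell arrays 19.2, 6.3, 17.7 and 24.8, so the stages overlapped. In a fit without the filter its log2 change between blastocysts and 8-cell embryos was 0.78 (interval -0.12 to 1.67, limma adjusted p = 0.32). Blastocyst replicate 2 was the highest array of that stage in both Flrt3 probe sets.

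Dkk1 (1458232_at), the Wnt antagonist, was higher in blastocysts than at each of the other stages and changed at none of the earlier steps by the test. Its intensity was 88.4, 23.4, 11.3 and 28.5 on the oocyte arrays, 14.2, 36.1, 8.7 and 31.9 on the 1-cell arrays, and 26.6, 30.2, 24.4 and 12.1 on the 2-cell arrays. At the 8-cell stage it read 9.6, 16.9, 11.4 and 11.2, and in blastocysts 99.7, 117.5, 62.7 and 161.9. All blastocyst arrays were above all 1-cell, 2-cell and 8-cell arrays, but the highest oocyte array lay above the lowest blastocyst array. Means were 110.5 ± 41.2 (SD, n = 4) in blastocysts and 12.3 ± 3.19 in 8-cell embryos, a log2 change of 1.96 with an interval from 1.18 to 2.75 (limma, adjusted p = 0.00058). Blastocysts were also higher than oocytes, at 37.9 ± 34.4, by 1.28 log2 units (interval 0.50 to 2.06, limma adjusted p = 0.00927). From oocyte to 8-cell no consecutive step passed, with log2 changes of -0.33, 0.06 and -0.41 and adjusted p-values of 0.743, 0.946 and 0.471 by limma. In the order blastocyst, oocyte, 2-cell, 1-cell and 8-cell, only the first pair was separated.

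Ctsh (1443814_x_at), the lysosomal protease, had the opposite course and fell at each of the 4 steps. It read 3679.8, 3884.2, 3815.7 and 4165.3 in oocytes, 1587.9, 1982.8, 2201.0 and 2605.9 in 1-cell embryos, and 1546.2, 998.7, 989.0 and 1077.9 in 2-cell embryos. In 8-cell embryos it was 556.7, 580.2, 675.9 and 1065.1, and in blastocysts 228.2, 177.8, 178.8 and 217.1. Consecutive stages did not overlap except the 8-cell and 2-cell stages, where 8-cell replicate 4 lay within the range of the 2-cell arrays. Blastocysts averaged 200.5 ± 26.0 and oocytes 3886 ± 205 (SD, n = 4), a log2 change of -4.15 with an interval from -4.55 to -3.75 (limma, adjusted p = 1.16e-14).

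By step, the log2 changes of Ctsh were -0.91 in 1-cell embryos against oocytes (limma, adjusted p = 0.00328), -0.85 in 2-cell against 1-cell embryos (adjusted p = 0.00189), -0.69 in 8-cell against 2-cell embryos (adjusted p = 0.00902) and -1.70 in blastocysts against 8-cell embryos (adjusted p = 5.6e-07). All neighbouring stages in its order of levels were thus separated. Of the 15234 tested probe sets, 7 were called lower at all 4 steps, or 0.0459%, and Ctsh was one of them. The step from 1-cell to 2-cell lost its call when arrays were quantile normalized, with a log2 change of -0.52 (limma, adjusted p = 0.061). The probe set is of the x_at type, whose probes can match other transcripts, it is the only one for Ctsh on this array, and the annotation gives no target accession for it. Its fall into the 1-cell stage went with the rise of the 18S signal by 5.83 log2 units (exact 2-sided permutation test, p = 0.0286, and groups of 4 arrays cannot give a lower one). The part of that signal in the fall was not tested.

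**Figure D2:**
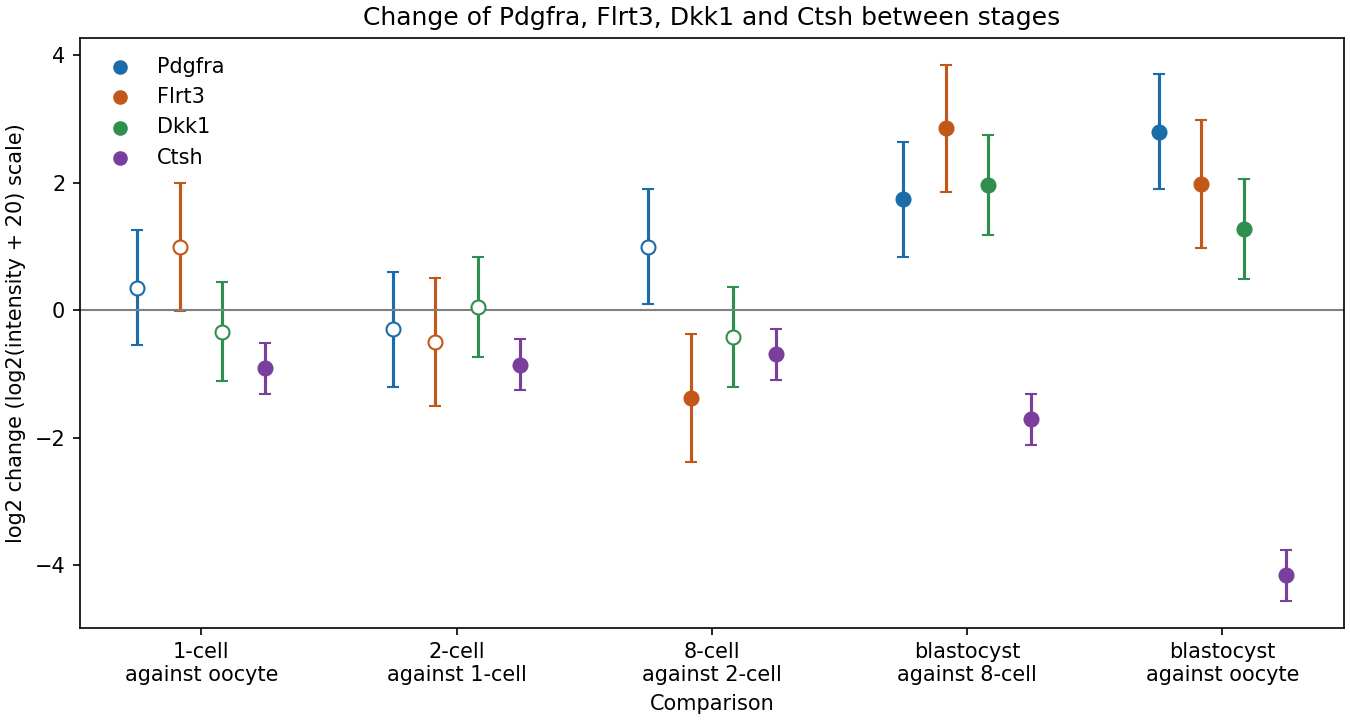
Points are log2 changes on the log2(intensity + 20) scale with 95% intervals, for the 4 consecutive comparisons and for blastocyst against oocyte, by gene (Flrt3 by 1453102_at). Filled points passed an adjusted p under 0.05 in limma and open points did not. The Ctsh points lie below 0 in all 5 comparisons, and the other 3 genes lie above 0 in both blastocyst comparisons.

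Set beside one another, 3 of the 4 tested probe sets were called higher and 1 lower in blastocysts than in 8-cell embryos, where 7.98% of all tested probe sets were called higher and 6.58% lower. Changes at least as large in the same direction were seen in 1.84% of tested probe sets for Pdgfra, 0.381% for Flrt3, 1.35% for Dkk1 and 1.2% for Ctsh. The count itself supports nothing, because these genes were chosen with results of the same arrays known, and Pdgfra and Dkk1 passed the filter mainly through the stage in which they are high. Against oocytes the same 3 were higher and Ctsh lower in blastocysts, with 21.6% and 16.1% of all tested probe sets called in these directions. From 2-cell to 8-cell none was called higher and 2, Flrt3 and Ctsh, were called lower (background 14.1% higher and 13.4% lower). The steps from oocyte to 1-cell and from 1-cell to 2-cell each gave 1 call, the fall of Ctsh (background 2.67% higher and 4.26% lower at the earlier step, 12.2% and 9.34% at the later one). Arrays of blastocysts and 8-cell embryos did not overlap for any of the 4, as for 8.84% of tested probe sets in the upward and 8.77% in the downward direction. Against oocytes 3 of the 4 did not overlap (20.2% and 15.3% of all), and the Ctsh arrays did not overlap at the steps into the 1-cell and 2-cell stages (6.96% and 10.5% of all lower). Pdgfra and Dkk1 were called higher in blastocysts than at each of the other 4 stages, a pattern of 3.67% of tested probe sets, and Flrt3 was not separated from the 1-cell stage. Ctsh was called lower in blastocysts than at each other stage, a pattern of 1.58%. The moderated F test of limma called a change over the stages in all 4, as in 53% of tested probe sets, with adjusted p = 2.24e-05 for Pdgfra, 0.000302 for Flrt3, 0.00102 for Dkk1 and 5.02e-14 for Ctsh.

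At the step from 2-cell to 8-cell the intervals of the log2 changes were 0.10 to 1.91 for Pdgfra and -2.38 to -0.37 for Flrt3, and that of Dkk1 reached from -1.19 to 0.37. The difference between the genes was not tested. Profiles were compared by the root mean square difference of 5 stage means, each profile minus its own mean over stages. It was 0.55 log2 units between Flrt3 and Dkk1, 0.67 between Pdgfra and Dkk1, 0.95 between Pdgfra and Flrt3, and 1.90 to 2.40 between Ctsh and the others. Of 8738 probe sets with a usable name, 0.549% were nearer to Flrt3 than Dkk1 was, 8.01% nearer to Pdgfra than Dkk1 was and 29.8% nearer to Pdgfra than Flrt3 was. Each share was counted around 1 gene of the pair only. The nearest named gene lay at 0.26 from Flrt3 and at 0.10 from Dkk1, so the share around Dkk1 may differ.

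By the same measure the genes most like Pdgfra were Oip5os1, at 0.10 log2 units, Stx3, a syntaxin of membrane fusion, at 0.12, and Pank4 at 0.17. Stx3 averaged 14.2, 21.2, 19.7, 60.8 and 259 from oocyte to blastocyst, with the 8-cell mean above the earlier ones, as in Pdgfra. Its 8-cell arrays split, at 21.8, 118.3, 81.8 and 21.2. Nearest to Dkk1 were Nmral1 at 0.10, Rp2 at 0.13 and Ip6k2, an inositol hexakisphosphate kinase, at 0.14. Nearest to Flrt3 were Frk, a Src-related tyrosine kinase, at 0.26, Tmx4 at 0.32 and the helicase gene Dhx36 at 0.33. Tmx4 averaged 117.8, 195.4, 122.9, 54.4 and 273.1 over the stages, with its lowest mean at the 8-cell stage too. Nearest to Ctsh were Elobl at 0.28, Fam155a at 0.29 and Cds1, a CDP-diacylglycerol synthase, at 0.31. Elobl averaged 20840, 14803, 5375, 2921 and 916. These 5 stage means share the same arrays and scaling. The genes were chosen by them, so the shared features follow from the choice, and the likeness is a description.

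**Figure D3:**
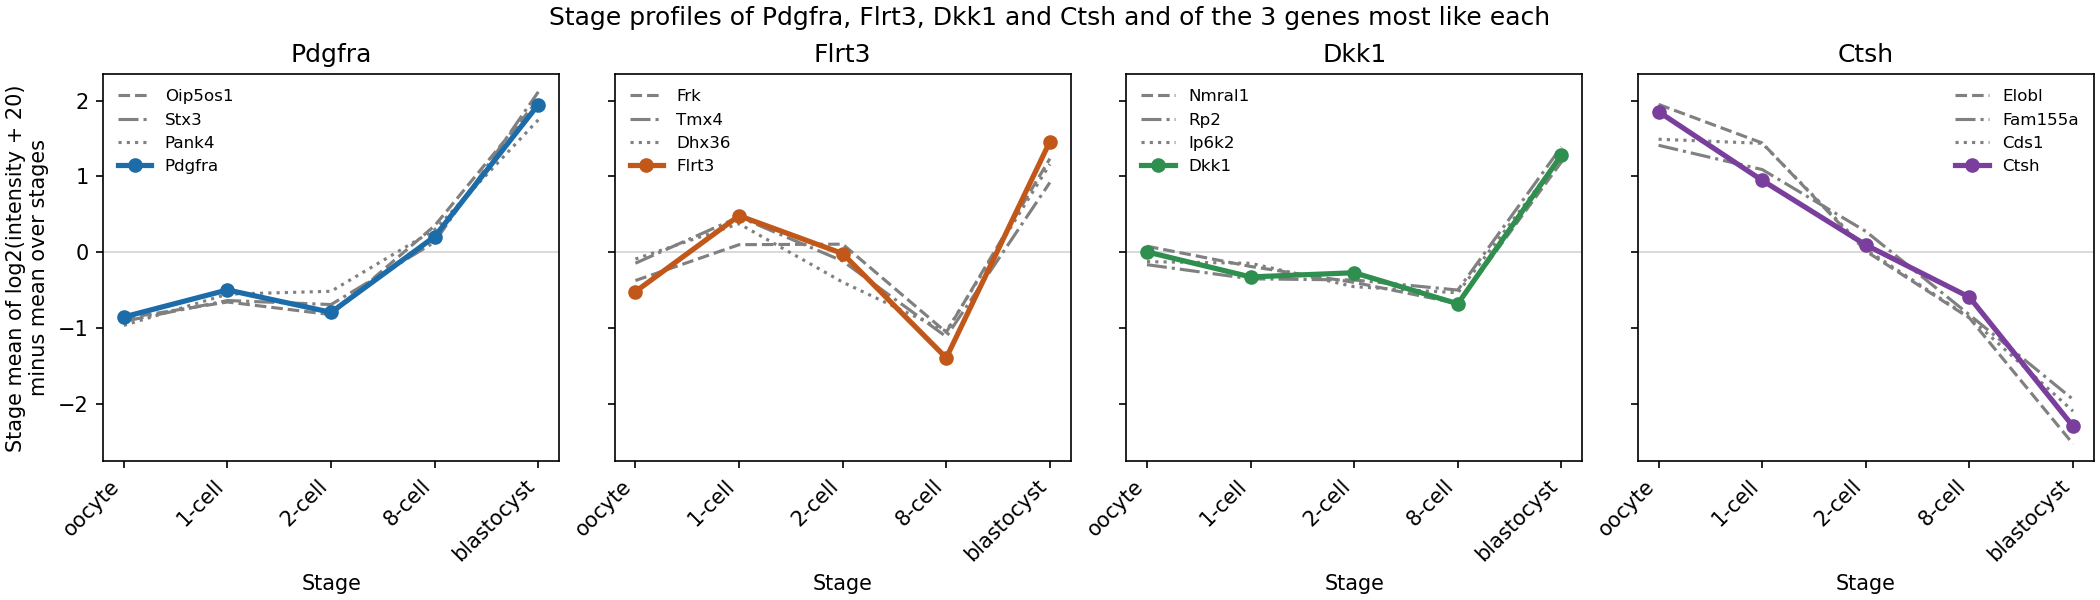
Lines are stage means of log2(intensity + 20) minus the mean over the 5 stages, from oocyte to blastocyst, coloured for Pdgfra, Flrt3 (1453102_at), Dkk1 and Ctsh and grey for the 3 genes most like each. The 8-cell mean is above the earlier ones in Pdgfra and the lowest of all in Flrt3, Dkk1 is highest in blastocysts and Ctsh declines throughout.

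Of the genes grouped as primitive endoderm genes, Ctsh did not rise in blastocysts and was lowest there, at 177.8 to 228.2. Whole-embryo intensities do not show in which cells a transcript lies, so its place in the group was not tested. No other tested gene of the primitive endoderm list was called higher in blastocysts than in 8-cell embryos. Of 35 listed genes 11 were on the array and 9 tested, of which 1 was called lower (median log2 change -0.18, against -0.07 over all tested probe sets). Earlier and wider comparisons went the other way, with 3 of the 9 higher and none lower in 8-cell against 2-cell embryos (14.1% and 13.4% over all), and likewise 3 and none in blastocysts against oocytes (21.6% and 16.1% over all). In both these were Gata6 and the endocytic genes Dab2 and Lrp2, the last 2 named after their values were seen. Dab2 averaged 269 ± 78.4 in blastocysts and 102 ± 55.7 in oocytes (log2 change 1.36, limma adjusted p = 0.0123). Lrp2 averaged 472 ± 41.1 in blastocysts and 192 ± 39.6 in oocytes (log2 change 1.23, limma adjusted p = 5.68e-06). Gata6, the factor that specifies these cells, had risen earlier, with 568 ± 92.2 in 8-cell embryos against 76.5 ± 76.0 in 2-cell embryos (SD, n = 4; log2 change 2.86, limma adjusted p = 1.34e-05). It stood at 415 ± 108 in blastocysts, and 2-cell replicate 1 was apart at 189.9. The gene that fell in blastocysts was Sparc, a matrix glycoprotein of parietal endoderm, at 291 ± 35.7 against 478 ± 103 in 8-cell embryos (log2 change -0.66, limma adjusted p = 0.0263). Sox7 averaged 43.5 ± 38.2 and Fst, a follistatin that binds activin, 146 ± 87.9 in blastocysts, against 74.0 ± 43.2 and 111 ± 108 in 8-cell embryos, and neither passed.

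Markers of other embryonic cells were read over the same step. For the trophectoderm, the outer epithelium, 3 of 27 listed genes were on the array. Both tested ones, Epcam and Tspan8, were higher in blastocysts than in 8-cell embryos, where 7.98% of all tested probe sets were, and Aqp3, at 46.8 ± 71.6 and 27.8 ± 5.17, did not pass the filter. The summed intensity ranged from 2945 to 3951 in blastocysts and from 1129 to 1200 in 8-cell embryos. For the inner cell mass and epiblast 7 of 25 were on the array, with 1 called higher and 1 lower (7.98% and 6.58% over all). The sum ranged from 4476 to 12796 in blastocysts and from 1946 to 2379 in 8-cell embryos. L1td1 made up most of the blastocyst sum and varied widely, at 6305 ± 3566 in blastocysts and 410 ± 178 in 8-cell embryos. Esrrb was called lower, at 390 ± 85.7 and 657 ± 76.9. Mesenchyme, in which Pdgfra is also expressed, had 3 of 12 markers on the array, with sums of 142 to 197 in blastocysts and 213 to 267 in 8-cell embryos and no call. Cumulus and granulosa cells had 6 of 21, with 1 called lower (6.58% over all) and sums of 999.6 to 1339 and 1513 to 2045. Blood and reproductive tract had 2 of 11, with sums of 38.0 to 109.7 and 35.8 to 125. No marker was listed at 0. Of the oocyte list 8 of 20 were on the array, and 7 of them were lower in blastocysts than in oocytes, as Ctsh was. Over all tested probe sets 16.1% were called lower and 21.6% higher in that comparison. The sums of the 8 ranged from 21026 to 25538 in blastocysts and from 90323 to 114334 in oocytes. The eighth, Khdc3, was higher at 20822 against 2305 (log2 change 3.17, limma adjusted p = 6.33e-11) and made up most of the blastocyst sum. The part of these cell types in the results was not tested.

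Calls in the receptor's pathway went both ways. Of 29 listed genes of PDGF signalling 14 were on the array and 11 tested, and 2 were higher and 1 lower in blastocysts than in 8-cell embryos, where 7.98% of all tested probe sets were higher and 6.58% lower. The median log2 change was -0.25, against -0.07 over all tested probe sets. Of the ligands Pdgfd was measured and did not pass the filter, with 49.2 ± 44.1 in blastocysts and 50.02 ± 14.2 in 8-cell embryos. The receptor-like gene Pdgfrl read 80.4 ± 21.7 in blastocysts and 142 ± 68.2 in 8-cell embryos and did not pass the test. Akt2, a kinase downstream of phosphatidylinositol 3-kinase, was higher at 301 ± 29.9 against 162 ± 28.2 (log2 change 0.83, limma adjusted p = 0.0397). The regulatory subunit gene Pik3r1 was higher at 530 ± 63.5 against 279 ± 68.1 (log2 change 0.90, limma adjusted p = 0.00101). The catalytic subunit gene Pik3cb was lower at 622 ± 85.0 against 2068 ± 427 (log2 change -1.69, limma adjusted p = 1.11e-05), after it had risen at the 2-cell and 8-cell stages. Plcg1 read 346 ± 99.1 against 479 ± 26.6 and did not pass.

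Of 32 genes of FGF and ERK signalling 14 were on the array and 12 tested, with 2 higher and none lower at this step, against the same 7.98% and 6.58% over all (median 0.09). These were Dusp4 and Etv5, a phosphatase and a transcription factor that are known to be induced by ERK activity. Dusp4 averaged 706 ± 288 in blastocysts and 37.5 ± 33.6 in 8-cell embryos (log2 change 3.69, limma adjusted p = 5.99e-07). Etv5 averaged 269 ± 18.02 and 120 ± 20.2 (log2 change 1.06, limma adjusted p = 0.00703). The kinase Braf, at 771 ± 278 and 543 ± 126, and Fgfrl1, at 1024 ± 150 and 518 ± 10.7, did not pass. Etv4, at 49.6 ± 38.2 and 100 ± 49.7, and Spry4, at 144 ± 41.1 and 164 ± 28.3, did not pass either. Both were named after their values were seen. Against oocytes 5 of the 12 were higher in blastocysts and 1 lower (21.6% and 16.1% over all). The lower one was Spry4, at 988 ± 511 in oocytes (log2 change -2.53, limma adjusted p = 7.65e-09).

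Among the Flrt family and its partners 13 of 16 were on the array and all 13 tested, with 1 higher and 1 lower at this step, against 7.98% and 6.58% over all (median 0.01). Adgrl2, a latrophilin and thus of the class of receptors that bind Flrt3, was higher at 686 ± 199 in blastocysts against 355 ± 40.7 in 8-cell embryos (log2 change 0.88, limma adjusted p = 0.0013). Flrt2 went the other way from Flrt3, at 123 ± 59.1 against 241 ± 37.9 (log2 change -0.99, limma adjusted p = 0.0358). Flrt1 at 377 ± 70.5 and 293 ± 14.8, Rnd1 at 206 ± 36.3 and 342 ± 24.7, and Unc5a at 94.3 ± 49.2 and 215 ± 140 did not pass.

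The Wnt list had 33 of 70 genes on the array and 26 tested, of which 6 were higher and 2 lower in blastocysts than in 8-cell embryos, against 7.98% and 6.58% over all tested probe sets (median -0.18). Kremen1, a receptor through which Dkk1 removes Lrp6 from the surface, was higher at 162 ± 53.0 against 59.4 ± 26.1 (log2 change 1.21, limma adjusted p = 0.00538). It had been highest in oocytes, at 369 ± 45.8. The other listed Dkk genes, Lrp5, Lrp6 and Kremen2 were not among the 33 and were not analysed here. Fzd5, a Wnt receptor, was higher at 1191 ± 240 against 369 ± 209 (log2 change 1.77, limma adjusted p = 0.000209). Fzd3, of the same receptor family, was lower at 209.8 ± 54.8 against 434.5 ± 33.8 (log2 change -1.01, limma adjusted p = 0.00113). It was named after its values were seen. Gsk3b, a kinase that marks beta-catenin for destruction, was higher at 1562 ± 89.8 against 888 ± 74.7 (log2 change 0.80, limma adjusted p = 0.000402). The tankyrase genes, whose products destabilise axin, parted: Tnks was higher at 782 ± 42.9 against 396 ± 75.3 (log2 change 0.97, limma adjusted p = 0.000134) and Tnks2 lower at 248 ± 117 against 742 ± 138 (log2 change -1.58, limma adjusted p = 8.49e-05).

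Of 42 other cathepsins and lysosomal genes listed, 12 were on the array and 11 tested. In blastocysts 6 were higher than in oocytes and 1 lower, against 21.6% higher and 16.1% lower over all tested probe sets, and the median log2 change was 1.09 against 0.12 over all. The lower one was Ctsa, a serine carboxypeptidase, at 386 ± 85.7 in blastocysts and 878 ± 267 in oocytes (log2 change -1.11, limma adjusted p = 0.00138). Psap, the precursor of the saposins, was higher at 19005 ± 3129 against 696 ± 161 (log2 change 4.74, limma adjusted p = 8.17e-16). So was Csta1, of the stefin family of cysteine protease inhibitors, at 3065 ± 648 against 22.7 ± 12.7 (log2 change 6.21, limma adjusted p = 8.68e-14). Npc2, a lysosomal cholesterol carrier, was higher at 243 ± 103 against 41.7 ± 32.6 (log2 change 2.15, limma adjusted p = 2.45e-05). From 8-cell embryos to blastocysts, the step read for the other pathway lists, 2 of the 11 were higher, Psap and Csta1, and none lower. Over all tested probe sets 7.98% and 6.58% were, and the median log2 change was -0.15 against -0.07. Npc2 had averaged 441 ± 79.8 in 8-cell embryos and did not pass at this step (log2 change -0.87, limma adjusted p = 0.109).

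Among the cathepsins proper, Ctsc was higher at 127 ± 7.72 in blastocysts against 33.5 ± 8.52 in oocytes (log2 change 1.47, limma adjusted p = 0.000266) and Ctsl at 76.7 ± 38.4 against 28.8 ± 29.3 (log2 change 1.09, limma adjusted p = 0.0432). Ctsb (138 ± 34.5 and 83.0 ± 57.3), Ctsf (364 ± 168 and 206 ± 139), Ctso (78.8 ± 58.1 and 108 ± 12.3) and Cts8 (71.6 ± 24.1 and 101 ± 27.7) did not pass. Cts7 stayed at or below 4.60 on average and was not tested. In 8-cell embryos Ctsc averaged 246 ± 44.5, and its step from there into blastocysts did not pass (log2 change -0.84, limma adjusted p = 0.0577).

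**Figure D4:**
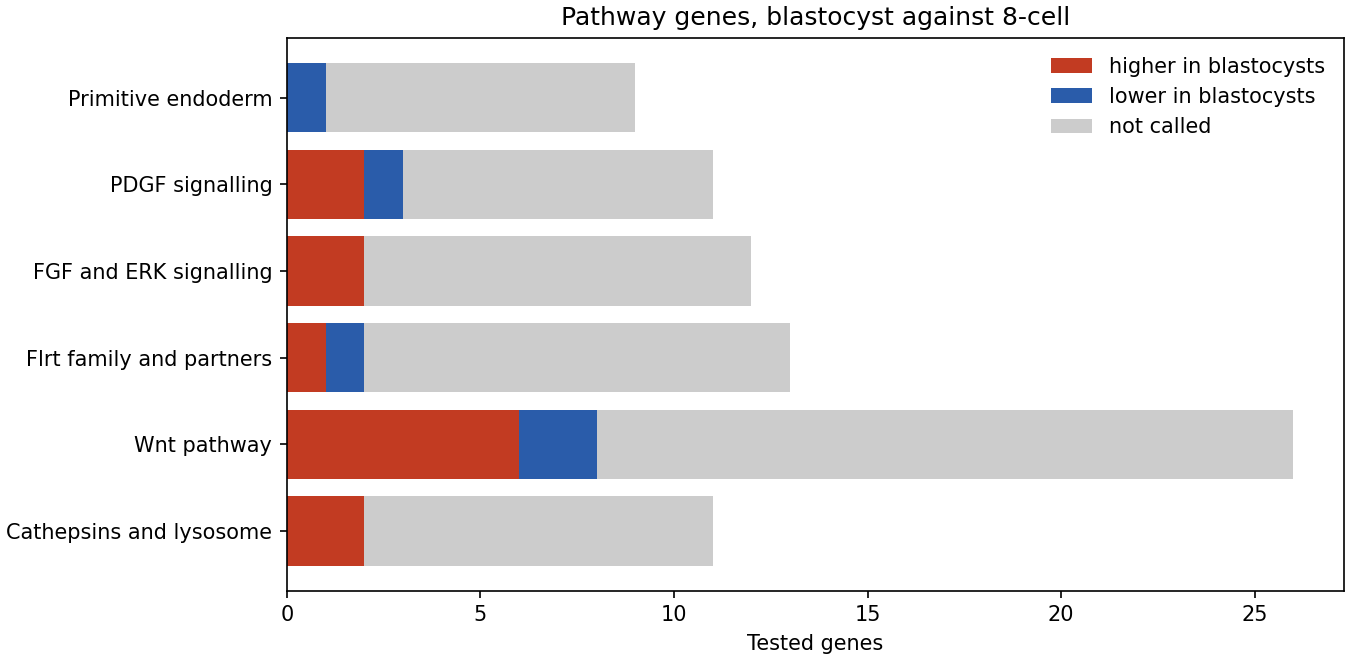
Bars count the tested genes of each list by their call in blastocysts against 8-cell embryos, in limma at an adjusted p under 0.05, with Pdgfra, Flrt3, Dkk1 and Ctsh left out of the lists. The Wnt list holds 6 genes called higher and 2 called lower, and the primitive endoderm list 1 called lower and none called higher.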

How the data were processed

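The deposited table gives 1 linear intensity per probe set and array for 20 arrays (4 a stage) of RNA amplified in 2 rounds, per the labels. How the authors computed the intensities was not given in these sources. In the table the mean of each array, trimmed by 2% at each end, lay between 150.02 and 150.04. Groups and replicate numbers came from the sample titles.

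The 64 control probe sets were left out, which left 22511. The platform annotation gave 14661 of them 1 gene symbol, 245 several and 7605 none; 14486 of the single symbols were found in the RefSeq gene table. Intensities were tested as log2(intensity + 20) with limma 3.58.1 in R 4.3.3 (stage means, intensity trend, 15 residual degrees of freedom), over the 15234 probe sets at or above the table median of 82.6 on at least 4 arrays. P-values were adjusted by Benjamini-Hochberg within each comparison and called under 0.05. A gene with several probe sets was represented by the tested one with the highest mean log2 value. Other genes were named by likeness of profile (3 per gene), by the smallest adjusted p in blastocysts against 8-cell embryos (up to 4 per list), or as relatives of the 4 genes. The 4 genes and the lists were chosen with earlier results of these data known. The fit was tested on simulated data. Alternatives were other offsets, filters, normalizations, variance models, array weights, probe set types, samples in the fit, a replicate block and leaving out each array.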

Additional observations from a re-analysis of the deposited data

Results flagged for a closer look

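In 21 of 255 stage groups of 4 arrays searched, 1 array stood apart from the other 3 by Dixon's test, which chance does in about 1 group in 20. Among the 25 groups of the Pdgfra, Flrt3, Dkk1 and Ctsh probe sets there were 2. Flrt3 (1429310_at) read 57.7 on 2-cell replicate 3, with the others at 18.6 to 24.5. Ctsh read 1546.2 on 2-cell replicate 1, with the others at 989.0 to 1077.9.

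Among the genes with profiles like theirs, Dhx36 read 104.9 and Nmral1 91.9 on 8-cell replicate 3, with the other arrays at 35.7 to 38.5 and 12.3 to 22.2. On oocyte replicate 2, Rp2 read 135.9 (others 41.7 to 45.8) and Ip6k2 147.0 (others 75.2 to 85.0). Ip6k2 was low on 1-cell replicate 2, at 73.9 (others 95.8 to 99.3). Elobl was high on blastocyst replicate 1, at 1226.8 (others 791.1 to 843.5).

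Among the listed genes, Gata6 was high on 1-cell replicate 2, at 135.3 (others 28.1 to 37.3), and on 2-cell replicate 1, at 189.9 (others 27.4 to 44.7). Pdgfd read 103.3 on 2-cell replicate 2 (others 42.5 to 51.5), Pik3cb 749.1 on blastocyst replicate 1 (others 570.5 to 589.2) and Plcg1 586.1 on 1-cell replicate 4 (others 284.9 to 308.5). Dusp4 was high on 2-cell replicate 4, at 89.0 (others 7.8 to 21.3), and on 8-cell replicate 3, at 87.5 (others 15.0 to 24.6). Braf was high on 1-cell replicate 3, at 507.9 (others 408.3 to 421.5), and low on 2-cell replicate 4, at 343.5 (others 388.9 to 395.0). Kremen1 read 241.0 on blastocyst replicate 3 (others 128.5 to 141.8). Low arrays were 1-cell replicate 1 for Gsk3b, at 224.2 (others 253.1 to 258.9), oocyte replicate 1 for Ctsa, at 477.9 (others 985.3 to 1030.4), and 2-cell replicate 2 for Csta1, at 1.7 (others 22.8 to 26.6).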

How the results depend on the processing

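Of 722 values of 24 results under the alternatives, 706 kept their direction and side of the threshold, 8 lost a call, 2 gained one and 6 changed sign. The log2 change of Ctsh between 2-cell and 1-cell embryos was -0.52 after quantile normalization (limma, adjusted p = 0.061). That of Dkk1, never called at this step, was -0.074 after quantile normalization, -0.058 with a common array median and -0.12 to 0.21 with an array left out. Between 1-cell embryos and oocytes it ran from -0.57 to 0.026 with an array left out. The fall of Flrt3 between 8-cell and 2-cell embryos lost its call with an offset of 80 (-0.64, limma adjusted p = 0.0838) and with only these stages in the fit (-1.38, adjusted p = 0.0518), and ran from -1.76 to -1.07 with an array left out. Pdgfra at that step ran from 0.79 to 1.50. The cause was not tested. With offsets of 5 and 80 the blastocyst against 8-cell change was 2.00 and 1.24 for Pdgfra, 3.98 and 1.55 for Flrt3, and 2.68 and 1.02 for Dkk1, all called. A common median shifted the median of all tested probe sets by -0.19 in 2-cell against 1-cell embryos and by -0.20 in blastocysts against oocytes, and quantile normalization shifted the second by -0.11. The labels name no link between arrays of different stages with the same replicate number. Between consecutive stages the deviations of such arrays from their stage means correlated between -0.062 and 0.063. The replicate block changed no call of the 4 genes; with it Pdgfra had an adjusted p of 0.0109 in blastocysts against 8-cell embryos, where 2175 probe sets were called with the block and 2218 without. Ctsh gives no value without x_at probe sets, nor do Flrt3 and Dkk1 under a filter at the 75th percentile (188.8), since these remove them. Without detection calls, low signals cannot be separated from background.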

Other observations

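Beside Ctsh, the probe sets called lower at all 4 steps (limma) were those of Padi6, Astl, Mfsd2a, Fbxw16, Fbxw21 and A430093F15Rik, named here after their values were seen. Padi6, a peptidylarginine deiminase of the oocyte's cytoplasmic lattices, averaged 18815 in oocytes, 5731, 1920 and 671 in 1-cell, 2-cell and 8-cell embryos and 140.0 in blastocysts. Astl, the protease of the cortical granules that cleaves the zona pellucida after fertilization, averaged 4399, 2599, 989, 314 and 184 over the same stages. Mfsd2a, a lipid transporter, averaged 3569, 1646, 891, 90.1 and 15.3. The F-box genes averaged 17902, 8116, 2113, 534 and 299 for Fbxw16 and 8867, 2878, 1172, 110.4 and 25.3 for Fbxw21.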
